A study of Danio rerio with 15 samples.

Results

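Zebrafish larvae mutant for rraga were compared with uninjected wild-type larvae, 3 RNA-seq libraries against 3, over all 23237 genes listed in the deposited table for this pair. These 6 libraries are 6 of the 15 in the series, and their genotypes and treatment were taken from the labels. Both groups were of the TL strain, were sampled whole at 4 days post fertilization, had not been injected, and had grown at a common temperature in water with methylene blue and PTU, an inhibitor of melanin synthesis. The rraga mutants had been scored under a confocal microscope before freezing. The lesion in rraga, the number of larvae in a library and whether the wild-type larvae were from the same parents are not stated in the sources available. A further group, uninjected larvae with mutations in tfeb, tfe3a and tfe3b (the triple mutants, 3 libraries, same strain and age), served only for levels set beside those of the rraga mutants. For some genes, levels are also given for wild-type larvae injected with zymosan A (3 libraries, same age).

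The gene rraga encodes RagA, a small GTPase on the lysosome surface. When amino acids are plentiful, RagA with its partner binds the kinase complex mTORC1 and also holds the transcription factors Tfeb and Tfe3 at the lysosome, where mTORC1 phosphorylates them and keeps them out of the nucleus. Released factors switch on genes for lysosomal enzymes, the proton pump that acidifies lysosomes, and autophagy, the delivery of cell contents to lysosomes. In zebrafish, RagA is known to be needed for normal microglia, the phagocytes of the brain, and for myelin, the sheath around axons. The series included rraga mutants for comparison with a study of the Tfeb and Tfe3 response to inflammation.

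The libraries held 12466834 to 15341259 counts in wild type and 13892496 to 14165854 in rraga mutants. Genes of the mitochondrial genome took 10.06% to 12.64% of counts in wild type and 11.87% to 12.65% in rraga mutants. The groups separated on the leading principal component, which held 46.9% of the variance. On the next component, which held 18%, rraga replicate 3 lay apart at -47.58, against 15.22 and 29.38 for rraga replicates 1 and 2 and 0.57 to 1.69 for wild type. Genes that follow this library are described with the clock and light-responsive genes below, and counts without it are given for some of the lists.

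Of 17927 genes with enough counts to test, 1495 were higher and 1218 lower in rraga mutants (edgeR's quasi-likelihood test, Benjamini-Hochberg adjusted p under 0.05, the threshold for every gene said here to have risen, fallen or changed). These are 8.34% and 6.79% of the genes tested. Among them, 490 rose and 231 fell by over 2-fold, and 124 rose and 64 fell by over 4-fold. Leaving out rraga replicate 3 gave 1858 higher and 1637 lower. Fewer genes passed when another library was left out: 749 were lower without rraga replicate 1, 728 without wild-type replicate 1, 654 without wild-type replicate 2 and 754 without wild-type replicate 3, and 973 were higher without wild-type replicate 2.

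Transcript of rraga itself (ENSDARG00000104149, chromosome 14, 14027427 to 14094406 on GRCz11) was present in every library. It stood at 26.2, 24.5 and 26.1 CPM (the count scaled to a common library size) in rraga replicates 1, 2 and 3, and at 13.3, 12.5 and 17.5 CPM in the wild-type replicates. All rraga libraries lay above all wild-type libraries, and the log2 fold change was 0.83 ± 0.15 (SE, adjusted p = 0.00105). With the lesion unknown, this level neither checks nor contradicts the label. Uninjected triple mutants held 15.6 CPM on average, and the direct difference between rraga and triple mutants was 0.74 (log2, adjusted p = 0.000489).

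Lysosomal hydrolases, the enzymes that digest proteins, sugars and lipids inside lysosomes, rose widely. Of 71 members tested (76 are in the table, and 5 had too few counts), 41 rose and 2 fell, against 8.34% and 6.79% of all genes tested. The median log2 fold change was 0.72, where that of all tested genes was 0.00. The summed level of the list ran from 3204 to 3394 CPM in the rraga libraries and from 1929 to 1995 CPM in wild type. In 46 members every rraga library lay above every wild-type library, against 16.5% of all tested genes. The count of members that rose stayed between 35 and 40 when any of the 6 libraries was left out.

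The cathepsins, lysosomal proteases, led this list. Transcript of ctsc (cathepsin C, ENSDARG00000101334, chromosome 15, 43604032 to 43625549) stood at 58.5, 61.9 and 72.3 CPM in rraga mutants and at 24.2, 24.0 and 25.4 CPM in the wild-type libraries (a log2 fold change of 1.39 ± 0.11, adjusted p = 5.70e-07). Transcript of ctsd (cathepsin D, an aspartic protease, ENSDARG00000057698, chromosome 18, 16133595 to 16146081) stood at 131, 127 and 127 CPM against 59.6, 50.4 and 61.5 CPM (1.17 ± 0.10, adjusted p = 8.12e-07). In both genes the rraga libraries lay close together and more than 2-fold above the wild-type mean. Transcript of ctsba (cathepsin B, ENSDARG00000055120, chromosome 17, 32622931 to 32631514) varied more, at 120, 232 and 151 CPM against 52.5, 39.7 and 56.2 CPM (1.76 ± 0.19, adjusted p = 1.20e-05). Here rraga replicate 2 was the highest library, and the lowest rraga library still exceeded the highest wild-type library. Also higher were ctsz, a carboxypeptidase, by 1.22 ± 0.10 (adjusted p = 1.06e-06), ctsla, cathepsin L, by 0.96 ± 0.08 (adjusted p = 1.48e-06), and ctsk, the cathepsin known for digesting bone collagen, by 1.2 ± 0.13 (adjusted p = 1.22e-05).

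Enzymes for sugars and lipid-linked sugars rose as well. Transcript of galns, a sulfatase for keratan and chondroitin sulfates (ENSDARG00000051853, chromosome 7, 55543351 to 55633475), stood at 10.4, 16.4 and 11.2 CPM in rraga mutants and at 2.89, 3.19 and 3.51 CPM in wild type. The groups did not overlap, and its log2 fold change of 1.99 ± 0.23 (adjusted p = 3.08e-05) was the largest among the hydrolases tested. The alpha-N-acetylgalactosaminidase gene naga rose by 1.07 ± 0.10 (adjusted p = 4.84e-06), the fucosidase gene fuca1.1 by 1.05 ± 0.12 (adjusted p = 2.56e-05) and glb1l, related to beta-galactosidase, by 1.32 ± 0.15 (adjusted p = 3.08e-05). The protective protein gene ctsa, which shields glycosidases, rose by 1.13 ± 0.11 (adjusted p = 5.32e-06), and the peptidase gene tpp1 by 1.23 ± 0.13 (adjusted p = 1.01e-05). The members that fell were aga, by 1.12 on the log2 scale, and zgc:158619, by 0.36 (both named after their values were seen). In each of the 6 fits that left out a library, at most 1 member was lower.

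**Figure D1:**
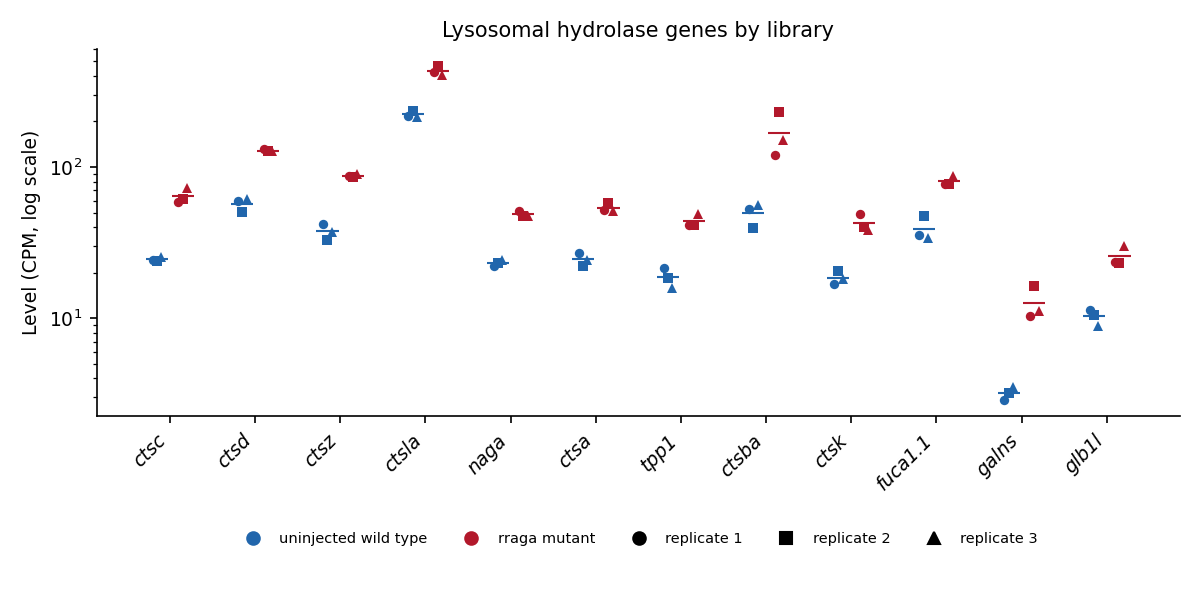
Level of the 12 lysosomal hydrolase genes with the smallest adjusted p, in CPM on a log axis, by library; points are libraries, marker shapes are replicate numbers and bars are group means. In all 12 genes the rraga libraries lie above the wild-type libraries, and ctsba shows the widest spread among rraga libraries.

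Of 75 tested genes of the lysosomal membrane, of transport across it and of sorting to it, 21 rose and 2 fell. These stand against 8.34% and 6.79% of all genes tested, and the median was 0.34. Their summed level was 1638 to 1675 CPM in rraga mutants and 1344 to 1361 CPM in wild type. The gene spelled LAMP1 (ENSDARG00000100181, chromosome 1, 176583 to 182258), for an abundant glycoprotein of the lysosomal membrane, stood at 45.2, 49.5 and 40.2 CPM against 15, 14.4 and 17.1 CPM. The groups lay far apart, and the log2 fold change was 1.54 ± 0.12 (adjusted p = 7.18e-07). A separate gene of similar name, lamp1 (ENSDARG00000092610, chromosome 9, 34380299 to 34389875), stood at 49.5, 57.9 and 56.1 CPM against 47.8, 48.9 and 50.2 CPM, and did not pass the test (0.15 ± 0.10, adjusted p = 0.330). Reads that fit both copies may have been assigned to either.

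Within this list, the receptor gene igf2r, which carries enzymes tagged with mannose 6-phosphate to lysosomes, rose by 0.94 ± 0.16 (adjusted p = 0.000998). The transporter gene slc15a4, for histidine and peptides, rose by 1.41 ± 0.25 (adjusted p = 0.00113), and clcn7, a chloride and proton exchanger, by 0.66 ± 0.14 (adjusted p = 0.00429). The tethering subunits vps41 and vps39, which help lysosomes fuse with other vesicles, rose by 0.54 and 0.51. The calcium channel gene mcoln1a, often used as a Tfeb target, stood at 15.6, 12.4 and 14.4 CPM in rraga mutants and 17.1, 17.9 and 14.2 CPM in wild type. Its groups overlapped and it did not pass the test (-0.22 ± 0.15, adjusted p = 0.390). The count of members that rose was 13 without wild-type replicate 2 and at most 23 in the other fits that left out a library.

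The v-ATPase is the proton pump of lysosomes and other compartments. Of its 25 tested subunit and accessory genes 10 rose and 2 fell, against 8.34% and 6.79% of all genes tested. The share that fell was near that of all genes. The median was 0.26, and the summed level of the list was 2422 to 2651 CPM in rraga mutants against 2158 to 2343 CPM in wild type. Transcript of atp6v1ba, a B subunit of the catalytic head (ENSDARG00000013443, chromosome 17, 21372291 to 21418340), stood at 110, 110 and 103 CPM against 56.2, 57.5 and 65.9 CPM (0.85 ± 0.09, adjusted p = 1.64e-05). The membrane subunits atp6v0a1a and tcirg1b rose by 0.84 ± 0.09 (adjusted p = 1.68e-05) and 1.23 ± 0.16 (adjusted p = 6.27e-05). The ring subunit genes moved in opposite directions: atp6v0ca rose by 0.48 ± 0.08 (adjusted p = 0.000662), and its paralog atp6v0cb fell by 0.30 on the log2 scale (adjusted p = 0.0295), a call lost in 4 of the alternatives tried. The accessory gene atp6ap1b rose by 0.82 and atp6ap1la fell by 0.71.

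Of 57 autophagy genes tested 6 rose and 2 fell, 10.5% and 3.51% against 8.34% and 6.79% of all genes tested, with a median of 0.08. Transcript of sqstm1, which encodes the cargo receptor p62 (ENSDARG00000075014, chromosome 14, 16765992 to 16771405), stood at 35.1, 35.4 and 23.8 CPM in rraga mutants and at 14.5, 15.3 and 10.3 CPM in wild type. The groups did not overlap although replicate 3 was the lowest of each (1.22 ± 0.18, adjusted p = 0.000207). Transcript of calcoco1b, whose mammalian relative is a receptor for autophagy of the endoplasmic reticulum (ENSDARG00000016391, chromosome 11, 2111582 to 2131280), stood at 18.7, 15.4 and 14.4 CPM against 3.96, 4.00 and 2.4 CPM. Its log2 fold change of 2.21 ± 0.22 (adjusted p = 5.37e-06) was the largest of the list. Another such receptor gene, retreg1, rose by 1.3 ± 0.28 (adjusted p = 0.00525), as did atg7, which activates the ubiquitin-like proteins of autophagosome formation, by 0.64. The paralogs gabarapb and gabarapa, for proteins that coat autophagosomes, moved apart, by 0.49 ± 0.09 (adjusted p = 0.00119) and -0.69 ± 0.13 (adjusted p = 0.00246).

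Among 40 tested genes of the Rag GTPases, Ragulator, the folliculin complex and mTORC1, 6 rose (rraga among them) and 2 fell. Over all genes tested, 8.34% rose and 6.79% fell. The count of 6 was 4 without wild-type replicate 1 or 3. Transcript of fnip1, a partner of folliculin (ENSDARG00000102171, chromosome 21, 45510448 to 45553237), stood at 66.3, 66.3 and 67.9 CPM in rraga mutants against 38.1, 44.5 and 35.1 CPM in wild type (0.77 ± 0.10, adjusted p = 0.000120). The Ragulator subunit gene lamtor5 rose by 1.2 ± 0.22 (adjusted p = 0.00151) and deptor, which binds and inhibits mTOR, by 0.69 ± 0.14 (adjusted p = 0.00349). Transcript of eif4ebp1, a repressor of translation that mTORC1 inactivates (ENSDARG00000043608, chromosome 21, 21013147 to 21020708), was lower, at 9.44, 5.99 and 7.92 CPM against 17.4, 17.0 and 18.8 CPM. Every rraga library lay below every wild-type library (-1.19 ± 0.18, adjusted p = 0.000312). The related gene eif4ebp3l rose by 0.43 (adjusted p = 0.0182), a call lost in 5 alternatives. The partner GTPase gene rragd stood at 2.75, 2.96 and 4.67 CPM against 2.26, 2.3 and 1.80 CPM without passing the test (0.70 ± 0.35, adjusted p = 0.208).

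The transcription factors of this pathway are regulated mainly through their location in the cell. The gene tfeb stood at 10.6, 8.51 and 10 CPM in rraga mutants and at 8.86, 9.19 and 8.65 CPM in wild type (0.13 ± 0.18, adjusted p = 0.708). The gene tfe3a stood at 3.80, 3.1 and 3.96 CPM against 3.77, 3.71 and 1.63 CPM (0.24 ± 0.35, adjusted p = 0.707), and tfe3b at 1.69, 0.649 and 0.495 CPM against 1.13, 1.78 and 2.06 CPM (-0.79 ± 0.55, adjusted p = 0.381). None of the 3 passed, the groups overlapped in each, and the standard errors of tfe3a and tfe3b were wide. Their pigment-cell relative mitfa was lower (-0.96 ± 0.30, adjusted p = 0.0415), a call lost in 6 alternatives.

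**Figure D2:**
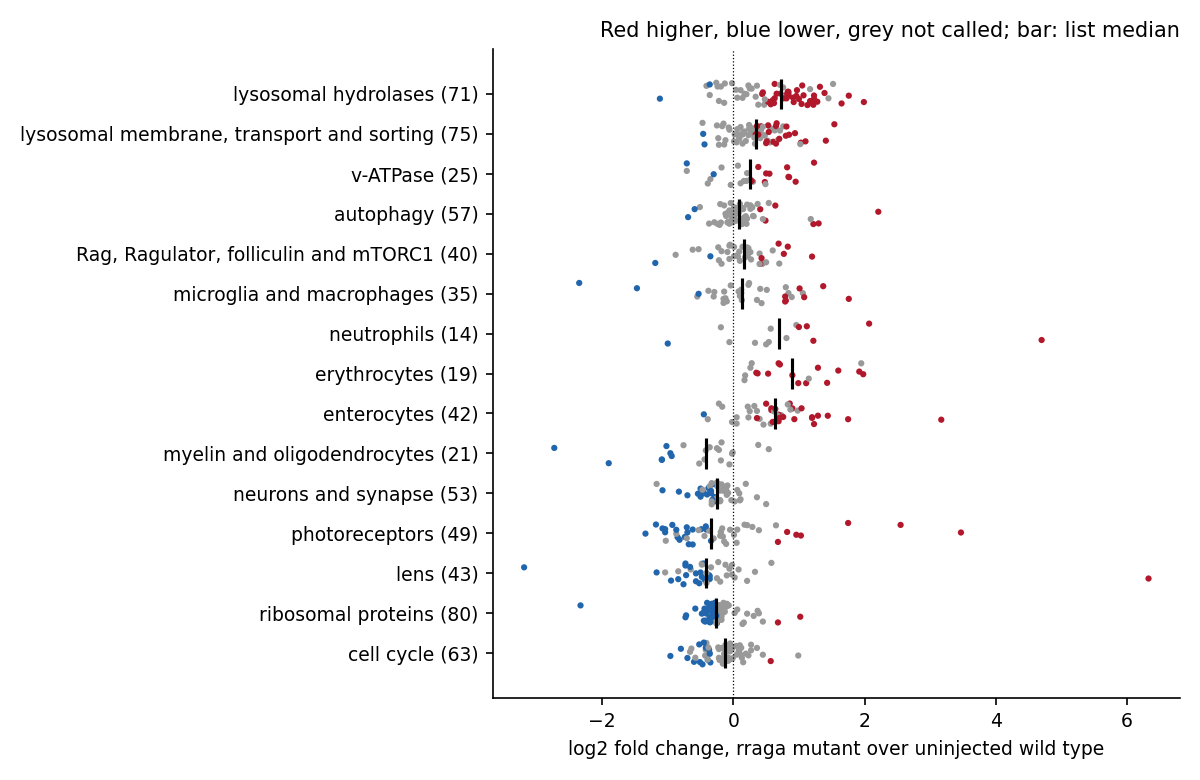
Log2 fold changes of the tested members of 15 gene lists, rraga mutant over uninjected wild type; each point is a gene, red for higher, blue for lower and grey for not called, black bars are list medians, and the number of members tested stands after each name. The hydrolase list has a median of 0.72 with most points to the right of 0, and the myelin list has a median of -0.42 with 7 members lower and 0 higher.

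When rraga mutants were set directly against uninjected triple mutants, labelled as mutant for the factors that RagA restrains, 2645 of 19006 genes were higher in rraga mutants (13.9%) and 2186 lower (11.5%). With library totals and no TMM scaling these counts were 1686 and 3039. Among the 71 hydrolases tested, 46 were higher in rraga mutants and 1 was lower, with a median of 0.88. Levels in this paragraph are scaled over all 15 libraries, as are triple-mutant levels elsewhere, so they differ slightly from those scaled over 6. Transcript of ctsd averaged 43.0 ± 4.95 CPM in triple mutants (SD, n = 3), below the 58.2 ± 6.06 CPM of wild type and the 130 ± 2.27 CPM of rraga mutants, and rraga mutants exceeded triple mutants by 1.6 on the log2 scale (adjusted p = 1.46e-10). For ctsk the triple-mutant mean was 6.86 CPM and the difference 2.66 (adjusted p = 1.90e-10), and for ctsa these were 12.8 CPM and 2.09 (adjusted p = 5.08e-11). Transcript of ctsba was at 0 CPM in all triple-mutant libraries. For tpp1 and galns the triple-mutant means, 20.3 and 3.25 CPM, stood beside 19 ± 2.80 and 3.25 ± 0.311 CPM in wild type (SD, n = 3), and rraga mutants exceeded triple mutants by 1.13 (adjusted p = 1.76e-05) and 2.00 (adjusted p = 2.47e-05). The rraga libraries are the same in this comparison and the one with wild type, so the values are given side by side and no overlap is read from them.

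**Figure D3:**
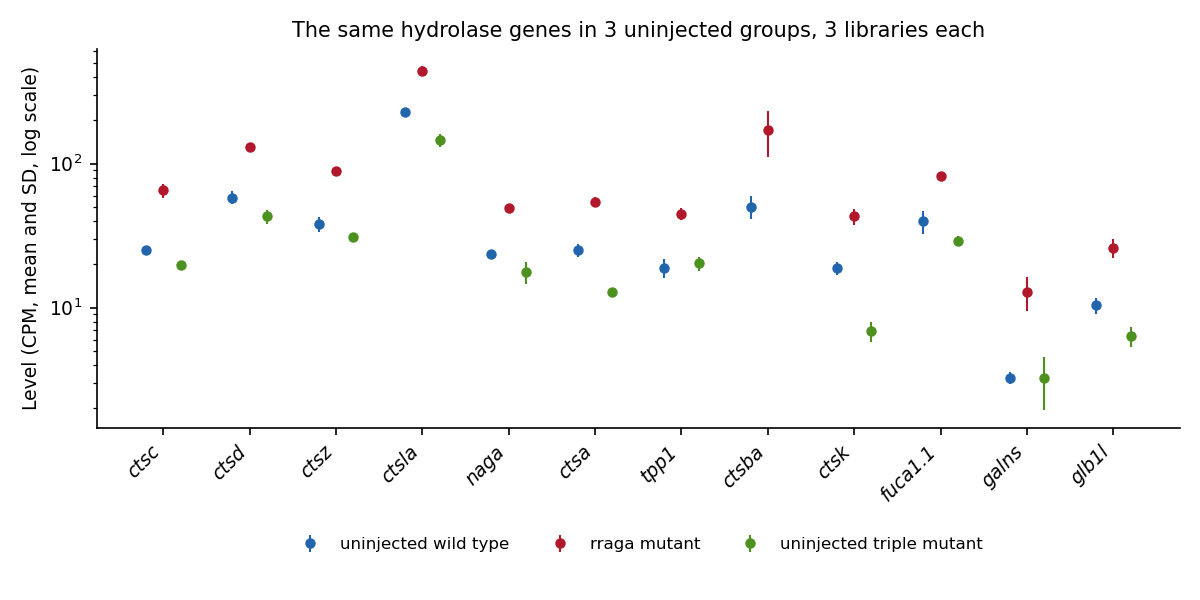
The same 12 hydrolase genes in uninjected wild type, rraga mutants and uninjected triple mutants, as mean and SD of 3 libraries in CPM on a log axis. The rraga mean is the highest of the 3 groups for every gene shown; ctsba has no triple-mutant point because it is at 0 there and a log axis cannot show it.

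Microglia and other macrophages are rich in lysosomes, and 35 of their marker genes were tested: 7 rose, 3 fell and the median was 0.13. Over all genes tested, 8.34% rose and 6.79% fell. The list summed to 1070 to 1126 CPM in rraga mutants and 893 to 969 CPM in wild type, with apoeb as the most abundant contributor named here. The rise of apoeb alone was about as large in CPM as that of the sum, so the sum says little about the other markers. Transcript of apoeb, an apolipoprotein of microglia and other cells (ENSDARG00000040295, chromosome 16, 23960744 to 23963461), stood at 425, 401 and 418 CPM in rraga mutants and at 247, 233 and 234 CPM in wild type (0.80 ± 0.08, adjusted p = 4.01e-06). Transcript of gpnmb, a glycoprotein of phagocytes and pigment cells (ENSDARG00000062688, chromosome 19, 20247435 to 20270207), stood at 81.6, 79.6 and 72.7 CPM against 45.9, 41.7 and 47.9 CPM (0.79 ± 0.10, adjusted p = 4.50e-05). In both genes all rraga libraries were higher. The granulin family genes grnb, grn2 and grna rose by 0.79 ± 0.12 (adjusted p = 0.000316), 1.76 ± 0.37 (adjusted p = 0.00464) and 1.37 ± 0.35 (adjusted p = 0.0152). Another member, grn1, stood at 6.62, 4.83 and 5.02 CPM against 7.92, 5.04 and 7.36 CPM and did not pass (-0.30 ± 0.25, adjusted p = 0.461).

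Among other leukocyte and macrophage markers, the actin-bundling gene lcp1 rose by 1.01 ± 0.20 (adjusted p = 0.00324), and the integrin gene itgb2 by 1.08 ± 0.31 (adjusted p = 0.0299), a call lost in 7 alternatives. The microglial receptor gene p2ry12 stood at 0.916, 2.02 and 1.48 CPM in rraga mutants and 1.44, 0.741 and 2.4 CPM in wild type (-0.04 ± 0.52, adjusted p = 0.973). The macrophage growth factor receptor gene csf1ra stood at 10.5, 7.86 and 5.23 CPM against 6.22, 4.60 and 5.74 CPM (0.51 ± 0.26, adjusted p = 0.215), and passed only without rraga replicate 3 (0.74, adjusted p = 0.0354). The perforin-like gene mpeg1.1 had too few counts to test, at 0.211, 0 and 0.495 CPM against 0.565, 0.296 and 0.685 CPM. With its wide standard error, a modest difference in p2ry12 could not have been detected, and mpeg1.1 was not tested. The galectin-binding gene lgals3bpb, at 1.34, 1.73 and 0.707 CPM against 8.10, 4.52 and 6.68 CPM, was lower (-2.35 ± 0.36, adjusted p = 0.000389), as were olfml3b and aif1l. In whole larvae, fewer cells of a type and less RNA per cell cannot be told apart. The part of these markers in the lysosomal result was not tested.

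Of 14 neutrophil markers tested, 5 rose and 1 fell, 35.7% and 7.14% against 8.34% and 6.79% of all genes tested. The summed level of the list overlapped between the groups (379 to 459 CPM in rraga mutants, 408 to 421 CPM in wild type). Transcript of mpx, myeloperoxidase (ENSDARG00000019521, chromosome 10, 7778870 to 7785945), stood at 7.75, 8.15 and 7.71 CPM against 3.58, 3.85 and 3.43 CPM (1.12 ± 0.22, adjusted p = 0.00315). The other markers that rose were lect2l by 2.07 ± 0.23 (adjusted p = 2.08e-05), npsn by 1.22, srgn by 1.00 and the collagenase gene mmp13a (ENSDARG00000114451) by 4.70 ± 0.68 (adjusted p = 0.000219). The latter rests on 5 counts in all of wild type against 143 in rraga mutants.

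Of 45 inflammatory genes tested 3 rose and 7 fell, 6.67% and 15.6% against 8.34% and 6.79% of all genes tested. The count of 3 was 2 without rraga replicate 1 or 2, 1 without rraga replicate 3 or wild-type replicate 1 or 2, and 0 without wild-type replicate 3 or with library totals and no TMM scaling. Of 10 interferon response genes 0 rose and 0 fell by edgeR's test (0 higher and 1 lower at an unadjusted p under 0.05, and 0 and 1 by DESeq2). The inflammatory genes that fell were mostly immediate early genes, transcription factors that respond to stimulation within minutes. Transcript of egr1 (ENSDARG00000037421, chromosome 14, 21332522 to 21336385) stood at 5.35, 5.41 and 6.29 CPM in rraga mutants and at 37.3, 44.2 and 42.2 CPM in wild type (-2.85 ± 0.14, adjusted p = 2.64e-09). Transcript of junbb (ENSDARG00000104773, chromosome 3, 7654655 to 7656059) stood at 2.68, 3.03 and 3.54 CPM against 24.1, 23.7 and 27.8 CPM (-3.03 ± 0.18, adjusted p = 1.39e-08). The groups were several-fold apart with little spread. The genes fosab, jund and junba were lower by -2.16 ± 0.16 (adjusted p = 3.53e-07), -0.97 ± 0.10 (adjusted p = 6.45e-06) and -0.64 ± 0.16 (adjusted p = 0.0135). The iron-regulating hormone gene hamp held 3 counts in rraga mutants and 66 in wild type, a ratio of wild type to rraga of 22.6 (95% counting interval 7.40 to 112). In uninjected triple mutants hamp averaged 0.0743 CPM, and its direct difference from rraga mutants, -0.23, did not pass (adjusted p = 0.916).

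Myelin genes fell. Of 21 markers of myelin and oligodendrocytes tested, 7 fell and 0 rose by edgeR's test (1 was higher at an unadjusted p under 0.05, and 0 by DESeq2). The 7 are 33.3% of the list, against 6.79% of all genes tested. The median was -0.42, and the summed level was 475 to 504 CPM in rraga mutants against 668 to 714 CPM in wild type. Transcript of plp1b, a proteolipid protein of myelin (ENSDARG00000011929, chromosome 5, 23268121 to 23280098), stood at 1.97, 2.74 and 4.17 CPM in rraga mutants and at 18, 18.8 and 22.5 CPM in wild type (-2.73 ± 0.23, adjusted p = 1.14e-06). Transcript of mbpa, myelin basic protein (ENSDARG00000036186, chromosome 19, 21814047 to 21832630), stood at 42.9, 51.1 and 43.8 CPM against 88.7, 84.5 and 90.6 CPM (-0.94 ± 0.10, adjusted p = 9.20e-06). No rraga library reached the lowest wild-type library in either gene. Its paralog mbpb changed by -0.96 ± 0.11 (adjusted p = 2.42e-05), the junction gene cldnk by -1.90 ± 0.18 (adjusted p = 3.44e-06), the adhesion gene mag by -1.09 ± 0.11 (adjusted p = 5.27e-06) and cd59 by -1.09 ± 0.16 (adjusted p = 0.000304). Between 7 and 8 members were lower whichever library was left out. The remaining member that fell, plp1a (-1.02 ± 0.17, adjusted p = 0.000632, named after its values were seen), lies 0.55 Mb from rraga on chromosome 14. In the direct comparison with triple mutants, plp1b differed by -2.84 (adjusted p = 1.03e-09) and mbpa by -0.80 (adjusted p = 4.14e-06).

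Neuronal genes were lower too, by smaller steps. Of 53 markers of neurons and synapses 19 fell and 0 rose by edgeR's test (1 was higher at an unadjusted p under 0.05, and 0 by DESeq2). The 19 are 35.8% of the list, against 6.79% of all genes tested. The median was -0.25 and the summed level 7853 to 8276 CPM in rraga mutants against 9226 to 10175 CPM in wild type. Transcript of vamp2, a synaptic vesicle fusion protein (ENSDARG00000056877, chromosome 10, 22838364 to 22845485), stood at 48.5, 45.4 and 40.7 CPM in rraga mutants and 96.2, 101 and 86.5 CPM in wild type (-1.08 ± 0.10, adjusted p = 3.17e-06). The glutamate transporter gene slc17a6b changed by -0.83 ± 0.11 (adjusted p = 8.63e-05), cplx2, a regulator of vesicle release, by -0.50 ± 0.09 (adjusted p = 0.00125) and the growth cone gene gap43 by -0.46 ± 0.09 (adjusted p = 0.00333). The count of 19 was 10 without rraga replicate 1, 11 without wild-type replicate 2, 12 without wild-type replicate 3 and 27 without rraga replicate 3. Among 23 radial glia and astroglia genes 5 fell, including sox9b (-0.75 ± 0.12, adjusted p = 0.000376) and the Notch target her4.2 (-0.99 ± 0.22, adjusted p = 0.00631). Another 2 rose, of which glula, glutamine synthetase, changed by 0.57 ± 0.10 (adjusted p = 0.000970). Those that fell were 21.7%, against 6.79% of all genes tested, and those that rose 8.70%, near the 8.34% of all genes. Scaled over all 15 libraries, sox9b averaged 20.7 CPM in zymosan-injected wild type, 28.8 CPM in rraga mutants and 48.4 CPM in uninjected wild type. For her4.2 these means were 7.25, 4.36 and 8.66 CPM.

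In the eye, 19 of 49 photoreceptor genes fell and 7 rose, with a median of -0.34. These are 38.8% and 14.3%, against 6.79% and 8.34% of all genes tested. The summed level was 12287 to 12993 CPM in rraga mutants and 17180 to 21177 CPM in wild type. Transcript of opn1mw1, a green-sensitive cone opsin (ENSDARG00000097008, chromosome 6, 41181869 to 41183823), stood at 1174, 1265 and 1730 CPM against 2650, 2703 and 3198 CPM (-1.04 ± 0.12, adjusted p = 2.68e-05). The transducin genes gnat1 of rods and gnb3b of cones changed by -0.93 ± 0.10 (adjusted p = 9.58e-06) and -0.85 ± 0.09 (adjusted p = 9.58e-06), and the ultraviolet opsin gene opn1sw1 by -0.74 ± 0.09 (adjusted p = 3.99e-05). Low levels of these were not particular to rraga mutants. Scaled over all 15 libraries, gnat1 averaged 77.2 CPM in triple mutants and 80.4 CPM in rraga mutants (direct difference 0.06, adjusted p = 0.748). In zymosan-injected wild type opn1mw1, opn1sw1 and gnb3b averaged 1532, 2924 and 786 CPM, beside 1413, 3508 and 667 CPM in rraga mutants. In the same larvae gnat1 averaged 148 CPM, near the 154 CPM of uninjected wild type. The genes that rose include the cone genes pde6ha and arr3a, described with the clock genes. The count of 7 was 4 without rraga replicate 2 or wild-type replicate 1 or 2. Of 43 lens genes 20 fell (46.5%) and 1 rose (2.33%), with a median of -0.42. Most of those that fell were crystallins, such as crygm2d13 (-0.73 ± 0.09, adjusted p = 5.71e-05), whose near-identical copies may share reads. The one that rose, mipa, is described with the largest changes.

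Blood and gut markers rose. Of 19 erythrocyte genes tested, 13 rose and 0 fell by edgeR's test (0 were lower at an unadjusted p under 0.05 or by DESeq2). The 13 are 68.4% of the list, against 8.34% of all genes tested. The median was 0.90 and the summed level 1548 to 1759 CPM in rraga mutants against 946 to 1007 CPM in wild type. Transcript of tspo, a mitochondrial outer membrane protein (ENSDARG00000026655, chromosome 6, 40578219 to 40583253), stood at 33.3, 36.6 and 33.2 CPM in rraga mutants and 10.2, 8.38 and 7.36 CPM in wild type (1.98 ± 0.14, adjusted p = 2.25e-07). The transferrin receptor gene tfr1a rose by 1.92 ± 0.14 (adjusted p = 3.50e-07), and the embryonic globin genes hbae3 and hbbe1.1, close copies of other globins, by 1.43 ± 0.11 (adjusted p = 5.86e-07) and 0.99 ± 0.08 (adjusted p = 9.03e-07). A high level of tspo was not particular to rraga mutants. Scaled over all 15 libraries, it averaged 33.4 CPM in zymosan-injected wild type and 35.0 CPM in rraga mutants. In the same order, tfr1a averaged 8.78 and 30.9 CPM and hbae3 152 and 378 CPM. In triple mutants hbbe1.1 averaged 472 CPM, and its direct difference from rraga mutants, 0.02, did not pass (adjusted p = 0.956).

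Of 42 enterocyte genes 21 rose and 1 fell, 50.0% and 2.38% against 8.34% and 6.79% of all genes tested. The median was 0.63 and the summed level 1373 to 1704 CPM in rraga mutants against 1088 to 1231 CPM in wild type. The glucose transporter gene slc5a1 stood at 27, 28.6 and 18.1 CPM against 8.29, 6.30 and 7.19 CPM (1.75 ± 0.19, adjusted p = 1.20e-05). The microvillus gene vil1 rose by 0.90 ± 0.11 (adjusted p = 3.97e-05) and the peptide transporter slc15a1b by 1.2 ± 0.24 (adjusted p = 0.00280). Genes of the lysosome-rich cells of the gut stand in this list, and its member ctsbb, a cathepsin B relative that is also a hydrolase, rose by 1.23 ± 0.17 (adjusted p = 0.000162). The part of gut cells in the hydrolase result was not tested. Of 36 acute phase and complement genes, mostly of the liver, 12 rose (33.3%) and 1 fell (2.78%). Transferrin, tfa, rose by 1.09 ± 0.09 (adjusted p = 1.06e-06) from 541, 526 and 454 CPM to 961, 1115 and 1168 CPM.

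Genes of fuel use also changed. Of 67 genes of lipid handling and fatty acid oxidation 20 rose and 3 fell, 29.9% and 4.48% against 8.34% and 6.79% of all genes tested. The mitochondrial enzyme gene acadvl rose by 0.62 ± 0.08 (adjusted p = 8.10e-05) and cpt1b, which admits fatty acids to mitochondria, by 0.92 ± 0.14 (adjusted p = 0.000324). The count of 20 was 26 without rraga replicate 3, 13 without rraga replicate 1 or wild-type replicate 2 and 11 without wild-type replicate 3. Of 49 glycolysis and hypoxia genes 16 rose (32.7%) and 3 fell (6.12%), led by the isomerase gene gpib, at 70.9, 67.1 and 79.6 CPM against 20, 10.5 and 18.6 CPM (2.15 ± 0.17, adjusted p = 6.99e-07). The count of 16 was 10 without rraga replicate 2 and 8 without wild-type replicate 1 or 2. The ubiquitin ligase gene fbxo32, a marker of muscle protein breakdown, stood at 15.3, 21.4 and 21.5 CPM against 3.52, 3.04 and 2.14 CPM (2.72 ± 0.22, adjusted p = 6.99e-07), several-fold higher in every rraga library. A high level of fbxo32 was not particular to rraga mutants. Scaled over all 15 libraries, it averaged 26.3 CPM in zymosan-injected wild type and 19.7 CPM in rraga mutants.

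Ribosomal protein genes fell by small steps. Of 80 tested, 42 fell and 2 rose, against 6.79% and 8.34% of all genes tested. The median was -0.27, and 73 of the 80 had their lowest rraga level in replicate 3, as did 6768 of all 17927 genes tested. The summed level was 76515 to 89418 CPM in rraga mutants and 96193 to 107531 CPM in wild type. The gene rpl36 stood at 606, 606 and 531 CPM against 845, 841 and 922 CPM (-0.58 ± 0.08, adjusted p = 0.000144) and rpl38 at 261, 263 and 189 CPM against 378, 399 and 398 CPM (-0.72 ± 0.11, adjusted p = 0.000316). How many fell depended on the fit: 12 with all 15 libraries in the model, 54 with library totals and no TMM scaling, 19 without rraga replicate 1 or wild-type replicate 2, 25 without wild-type replicate 3 and 29 without rraga replicate 3. Of 63 cell cycle genes 13 fell and 1 rose, 20.6% and 1.59% against 6.79% and 8.34% of all genes tested. The mitotic genes cenpe (-0.52 ± 0.11, adjusted p = 0.00385) and ube2c (-0.96 ± 0.21, adjusted p = 0.00570) were lower. In zymosan-injected wild type, scaled over all 15 libraries, they averaged 26.8 and 9.49 CPM. Their means were 31.1 and 7.90 CPM in rraga mutants and 44.8 and 15.4 CPM in uninjected wild type. The count of 13 was 3 without wild-type replicate 1 or 2, 6 without wild-type replicate 3 and 7 without rraga replicate 1. Transcript of ccng1, cyclin G1 (ENSDARG00000076667, chromosome 14, 22129096 to 22140213), stood at 21.8, 20.2 and 25.3 CPM in rraga mutants and at 80.2, 75.3 and 81.3 CPM in wild type, with no overlap (-1.81 ± 0.11, adjusted p = 1.81e-08).

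Of 45 heat shock and oxidative stress genes, 16 rose and 5 fell, against 8.34% and 6.79% of all genes tested. The share that rose was well above that of all genes, and the share that fell less so. The mitochondrial chaperonin gene hspd1 stood at 296, 304 and 282 CPM in rraga mutants and 135, 144 and 126 CPM in wild type (1.12 ± 0.08, adjusted p = 3.50e-07). The cytosolic chaperone gene hspa8 moved the other way, at 119, 120 and 119 CPM against 289, 229 and 336 CPM (-1.25 ± 0.11, adjusted p = 2.43e-06). The antioxidant regulator nfe2l2a rose by 1.05 ± 0.13 (adjusted p = 5.68e-05), as did gclc, for glutathione synthesis, by 0.85 ± 0.11 (adjusted p = 7.51e-05). In zymosan-injected wild type, scaled over all 15 libraries, hspd1, nfe2l2a and gclc averaged 227, 93.5 and 47.7 CPM. These lay between the 137, 59.5 and 30.2 CPM of uninjected wild type and the 299, 123 and 54.2 CPM of rraga mutants. For hspa8 the zymosan mean was 379 CPM, above the 290 CPM of uninjected wild type. The metallothionein gene mt2 changed by -1.61 ± 0.14 (adjusted p = 1.43e-06). In uninjected triple mutants mt2 averaged 14.2 CPM, and its direct difference from rraga mutants, -0.32, did not pass (adjusted p = 0.571). The count of 16 was 10 without wild-type replicate 2 and 21 without rraga replicate 3.

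Several clock and light-responsive genes separated rraga replicate 3 from the other rraga libraries. Of 37 circadian genes 9 rose and 6 fell, and without rraga replicate 3 these counts were 13 and 8. The 9 and 6 are 24.3% and 16.2% of the list, against 8.34% and 6.79% of all genes tested. Among the rraga libraries, replicate 3 was the lowest in 19 of the 37 genes and the highest in 9, where over all 17927 genes tested it was the lowest in 6768 and the highest in 6730. The photolyase gene cry5, which light induces in zebrafish (ENSDARG00000019498, chromosome 10, 39264802 to 39283883), stood at 24.9, 22.3 and 7.71 CPM in rraga mutants and at 0.628, 1.04 and 2.14 CPM in wild type (3.90 ± 0.44, adjusted p = 1.94e-05). Its relatives cry-dash, at 47.8, 49.5 and 18.7 CPM against 4.21, 5.04 and 4.45 CPM, and cry1aa, at 107, 99.5 and 30.4 CPM against 12.4, 15.1 and 13.8 CPM, rose by 3.08 ± 0.29 (adjusted p = 3.60e-06) and 2.52 ± 0.32 (adjusted p = 6.35e-05). In each the level of rraga replicate 3 lay between wild type and the other rraga libraries. The period gene per2, named after its values were seen, behaved alike at 95.9, 97.5 and 14.1 CPM against 8.17, 11.9 and 8.13 CPM (2.88 ± 0.47, adjusted p = 0.000632). Not all clock genes followed this split: the repressor gene bhlhe40 stood at 116, 118 and 149 CPM against 52.8, 58.6 and 49.3 CPM (1.25 ± 0.11, adjusted p = 1.85e-06), with rraga replicate 3 the highest. The activator gene clocka was lower in all 3 rraga libraries, at 8.95, 9.45 and 10.8 CPM against 19.3, 19 and 17.4 CPM (-0.93 ± 0.15, adjusted p = 0.000576).

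The same split held for genes outside the clock. Transcript of cyp1a, an enzyme of foreign-compound metabolism (ENSDARG00000098315, chromosome 18, 5588068 to 5598958), stood at 801, 896 and 63.2 CPM in rraga mutants and at 17.3, 21.3 and 18.4 CPM in wild type (4.95 ± 0.63, adjusted p = 6.81e-05). Of the cone genes, pde6ha stood at 103, 106 and 41.7 CPM against 6.85, 6.74 and 9.16 CPM (3.47 ± 0.28, adjusted p = 6.99e-07). The cone arrestin gene arr3a, named after its values were seen, stood at 498, 511 and 105 CPM against 52.3, 71.5 and 66.5 CPM (2.55 ± 0.38, adjusted p = 0.000280). The size of the change in cyp1a and arr3a rests mainly on rraga replicates 1 and 2. The log2 fold change of pde6ha ran from 3.27 to 3.80 over the alternatives. High levels of cyp1a, cry1aa, cry-dash, pde6ha and bhlhe40 were not particular to rraga mutants. Scaled over all 15 libraries, they averaged 658, 173, 56.1, 158 and 139 CPM in zymosan-injected wild type. In rraga mutants these means were 597, 80.4, 39.3, 85.1 and 130 CPM. By contrast, clocka averaged 18.2 CPM in zymosan-injected wild type, near the 18.9 CPM of uninjected wild type. The sources used here do not say at what time of day each library was collected, and its part was not tested. The part of the confocal scoring of the rraga mutants before freezing was not tested either.

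**Figure D4:**
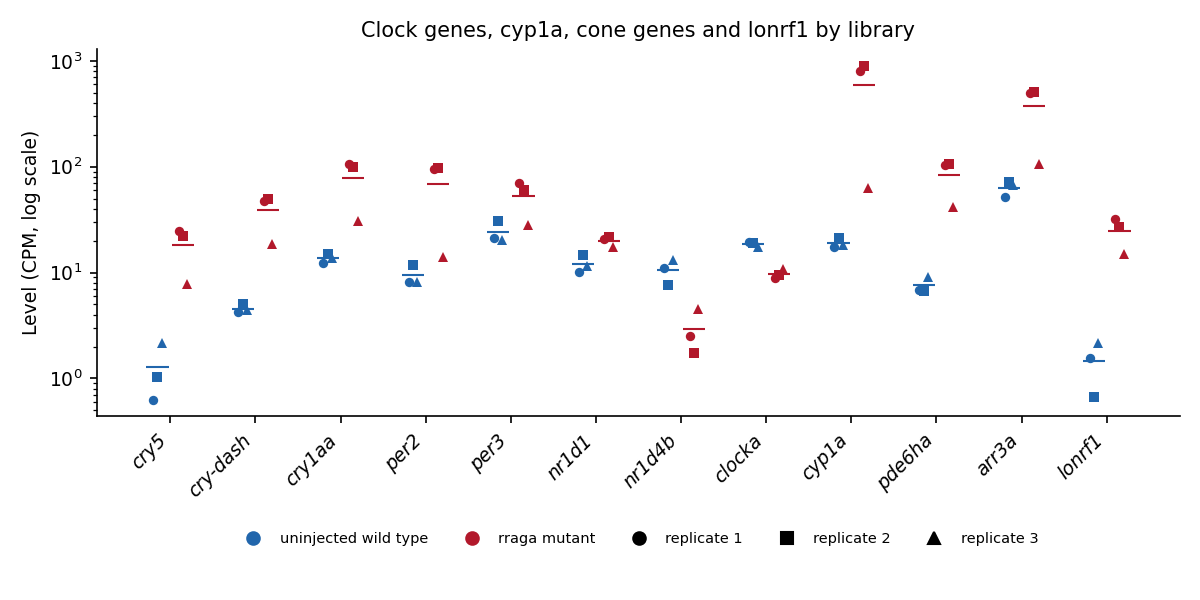
Level by library, in CPM on a log axis, of 8 clock genes, cyp1a, the cone genes pde6ha and arr3a, and lonrf1; points are libraries, marker shapes are replicate numbers and bars are group means. In per2, cyp1a and arr3a rraga replicate 3 (triangle) lies near wild type, at 14.1, 63.2 and 105 CPM, while replicates 1 and 2 are far above; per2, per3, nr1d1, nr1d4b and arr3a were chosen after their values were seen.

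Of the 12 largest decreases, 9 lay on chromosome 14, which carries rraga. On that chromosome 140 of 626 tested genes were called (22.4%, against 15.1% of all genes tested), 27 of them changed by over 4-fold. Within 2.5 Mb of the start of rraga, 53 genes were tested, of which 7 rose, 18 fell and 12 fell by over 4-fold. The window from 15 to 20 Mb, which partly overlaps this stretch, holds sqstm1 and tcirg1b. Of its 39 tested genes 10 rose and 5 fell (38.5% called). Transcript of tmsb1, a thymosin beta gene (ENSDARG00000104181, 12066695 to 12071679), held 3 counts in all rraga libraries and 3375 in wild type, where it stood at 82.2, 93.1 and 69.4 CPM. The ratio of wild type to rraga was 1155 (95% counting interval 395 to 5606). The histone deacetylase gene hdac3 (ENSDARG00000037514, 12178915 to 12205865) held 1 count against 509, that is 523 times fewer by ratio (95% counting interval 93.4 to 20689). The mitochondrial chaperone gene hspa9 (ENSDARG00000003035, 12142813 to 12168897) stood at 4.23, 5.19 and 4.88 CPM against 80.5, 96.0 and 76.1 CPM (-4.14 ± 0.14, adjusted p = 1.72e-11).

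Neighbours in the same stretch, upstream of rraga by coordinate, were the glutamate receptor gene gria3b (-6.06 ± 0.47, adjusted p = 4.28e-07), prps1b, for nucleotide precursor synthesis (-5.03 ± 0.36, adjusted p = 1.73e-07), and the zinc finger gene znf711 (-5.01 ± 0.45, adjusted p = 2.39e-06). In each, all rraga libraries were under 1 CPM. Triple mutants held intermediate means of 30.8 CPM for tmsb1, 2.77 CPM for hdac3, 30.8 CPM for hspa9 and 3.19 CPM for prps1b, and differed from rraga mutants in each (adjusted p = 3.61e-13, 1.36e-07, 4.76e-10 and 5.09e-06). Farther along the chromosome, hnrnpa0l (ENSDARG00000036161, 38849432 to 38850933) stood at 0.704, 3.68 and 0.353 CPM against 77.3, 88.7 and 82.5 CPM (-5.72 ± 0.35, adjusted p = 2.53e-08). The glutathione reductase gene gsr (-3.03 ± 0.43, adjusted p = 0.000167) lies on it too. Among genes described above, eif4ebp3l, csf1ra, sqstm1, tcirg1b, lect2l, egr1, ccng1, cplx2 and plp1a are on chromosome 14. Whether the genotype at rraga or the chromosome it came on goes with these levels cannot be told apart in this design. Without chromosome 14, 1432 genes were higher and 1138 lower.

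**Figure D5:**
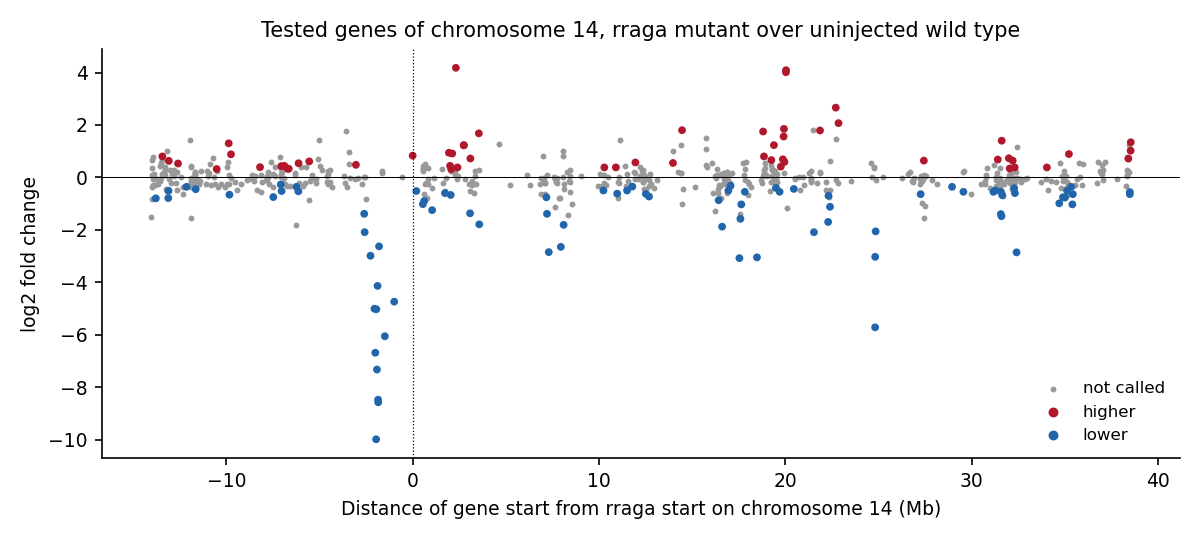
Log2 fold change, rraga mutant over uninjected wild type, of the 626 tested genes of chromosome 14 against the distance of each gene's start from that of rraga in Mb; red points were higher, blue lower and grey not called. A column of blue points reaching -9.99 (tmsb1) stands within 2.5 Mb of rraga on the side of lower coordinates; fitted values below -6 belong to genes with at most 5 counts in rraga mutants.

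Several of the largest changes elsewhere were shared in level with the triple mutants. The lens water channel gene mipa (ENSDARG00000037285, chromosome 23, 27068225 to 27072774) stood at 72.2, 88.7 and 63.6 CPM in rraga mutants and at 1.07, 0.889 and 0.771 CPM in wild type (6.33 ± 0.19, adjusted p = 1.01e-11). Its neighbour ptges3a (ENSDARG00000037284, chromosome 23, 27051919 to 27059998) stood at 30.2, 32.2 and 39.0 CPM against 0.189, 0.519 and 0.599 CPM (6.31 ± 0.26, adjusted p = 3.16e-10). Triple mutants averaged 65.9 and 27 CPM for these genes, and the direct differences from rraga mutants, 0.21 and 0.34, did not pass the test (adjusted p = 0.315 and 0.164). The chemokine gene cxcl12b, at 5.14, 4.83 and 6.01 CPM against 0, 0.222 and 0.599 CPM (4.37 ± 0.58, adjusted p = 0.0001), was higher still in triple mutants, at 27.4 CPM. The neural transcription factor gene barhl1b, at 0, 0.0721 and 0.212 CPM against 3.64, 4.15 and 5.22 CPM, averaged 0.292 CPM in triple mutants, without a difference that passed the test (-1.49, adjusted p = 0.194). By contrast, lonrf1 on chromosome 14 (4.09 ± 0.33, adjusted p = 6.67e-07) and the respiratory assembly gene sdhaf2 (4.09 ± 0.39, adjusted p = 4.01e-06) averaged 0.669 and 1.04 CPM in triple mutants and were higher in rraga mutants than there by 5.26 (adjusted p = 2.09e-08) and 3.14 (adjusted p = 1.40e-05).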

How the data were processed

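The labels gave groups and replicate numbers and speak of biological replicates. No separate parents or clutches are named, so p-values cover the spread among these libraries, which may be technical in part. Per the submitters' processing notes, HISAT2 2.0.5, StringTie 1.3.3b and featureCounts 1.5.0 were used with GRCz11; strand use is not given there, so reads of genes that overlap, antisense ones included, may be mixed. The authors deposited 3 tables, each with raw counts, a size-factor scaled signal and FPKM values per gene and library. Only the deposited counts were used. The signal and FPKM columns deposited by the authors are already scaled and were not used.

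The analysis used edgeR 4.0.16 (R 4.3.3): filterByExpr, TMM scaling (factors 0.938 to 1.039) and a quasi-likelihood test on the 6 libraries, with Benjamini-Hochberg adjustment over 17927 genes. Adjusted p-values of genes are from this tool. The comparison with triple mutants was a contrast in a model of all 15 libraries (19006 genes). Standard errors were derived from the F statistic. The code was tested on simulated data. Same-group libraries were compared, and no pair was identical or agreed within sampling noise. Ratios of genes with 1 to 3 counts in a group carry 95% exact binomial counting intervals, which cover counting error only, since reads have no molecular identifiers.

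The comparison, the 38 gene lists and the rule for named genes were chosen with earlier results of these data known. Named genes are rraga, tfeb, tfe3a, tfe3b, mitfa and rragd, the 12 largest increases and decreases with a mean over 1 on the log2 CPM scale and no overlap between groups, the members of each list with the smallest adjusted p (at most 12 or 6), and a set of defining markers; genes named for their values are said to be. Alternatives covered scaling, filters, DESeq2 1.42.0, a replicate block, each library left out, all 15 libraries, and the tables without mitochondrially encoded genes or chromosome 14. Results for some genes are not reported here.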

Additional observations from a re-analysis of the deposited data

How the results depend on the processing

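The numbers of genes higher and lower against wild type stayed within 1.5 times of 1495 and 1218 under another scaling, other filters, DESeq2 (1527 and 1249), all 15 libraries, and without mitochondrially encoded genes or chromosome 14. With 1 library left out they ran from 973 to 1858 and from 654 to 1637. Against triple mutants, library totals without TMM gave 1686 higher (2645 with TMM) and 3039 lower (2186), and leaving out a library gave 1991 to 2621 higher and 1542 to 2181 lower. Replicate numbers did not pair the samples: deviations of same-numbered libraries correlated at 0.013, -0.005 and 0.006. With the replicate number as a block, 1458 genes were higher and 1208 lower than in wild type, and 2528 and 2067 against triple mutants. Of 240 named genes that passed, 46 lost the call in at least 1 alternative, with the same direction, mostly with a library left out. Genes that had not passed changed sign: p2ry12 was at 0.21 without rraga replicate 1 and 0.41 without wild-type replicate 3, and ran from -0.37 to 0.41 over the 6 fits with a library left out; tfe3a was at -0.05 without wild-type replicate 3 and ran from there to 0.43. The cause was not tested. With 3 libraries a group, genes near 1 CPM had wide errors, as tfe3b and p2ry12 show.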

Other observations

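Skeletal muscle genes changed in both directions. Of 69 tested, 19 rose and 10 fell, 27.5% and 14.5% against 8.34% and 6.79% of all genes tested. The alpha-actinin gene actn3a stood at 240, 334 and 272 CPM in rraga mutants and at 93.9, 66.0 and 89.5 CPM in wild type (1.76 ± 0.14, adjusted p = 4.10e-07), and the skeletal actin gene acta1a at 236, 242 and 191 CPM against 387, 461 and 516 CPM (-1.03 ± 0.11, adjusted p = 1.36e-05). The cardiac actin copy actc1c, at 64.5, 60.7 and 58.1 CPM against 28.5, 24.6 and 30 CPM, averaged 0.0461 CPM in triple mutants. Close copies of actins may share reads. The count of 19 was 12 without wild-type replicate 1 and 9 without wild-type replicate 2, and the count of 10 was 4 without rraga replicate 1 and 5 without wild-type replicate 1.

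Pigment genes rose more often than they fell, 9 against 3 of 26. These are 34.6% and 11.5%, against 8.34% and 6.79% of all genes tested. The tyrosinase gene tyr, which starts melanin synthesis, stood at 78.7, 81.9 and 80.6 CPM against 44.5, 46.8 and 38.2 CPM (0.90 ± 0.10, adjusted p = 1.70e-05), and pmelb, a melanosome fibre gene, changed by -0.60 ± 0.09 (adjusted p = 0.000309). The count of 9 was 5 without wild-type replicate 1. All larvae had been kept in PTU. Among 44 amino acid transporter genes 7 rose (15.9%) and 1 fell (2.27%), with slc43a1b at 44.8, 33.6 and 32.0 CPM against 21.0, 23.4 and 24.6 CPM (0.68 ± 0.14, adjusted p = 0.00332). The count of 7 was 4 without rraga replicate 2 or wild-type replicate 2. Of 33 integrated stress response genes 3 rose and 2 fell, 9.09% and 6.06%, near the 8.34% and 6.79% of all genes tested. The count of 3 was 1 without rraga replicate 2 or wild-type replicate 1 or 2 and 5 without rraga replicate 3. Of 30 genes of cholesterol synthesis and uptake 0 rose and 2 fell by edgeR's test (3 were higher at an unadjusted p under 0.05, and 0 by DESeq2). The 2 that fell are 6.67% of the list, near the 6.79% of all genes tested.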
